A study of Drosophila busckii and Drosophila melanogaster and Drosophila virilis with 5 samples.

Results

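The folding of the D. virilis genome was compared with that of the D. busckii genome through their lists of boundaries between topologically associating domains (TADs). All boundaries of both lists were used, 2127 in D. virilis and 2134 in D. busckii, out of 6470 boundaries in the 3 lists of the series, which also holds D. melanogaster. TADs were measured from the centre of a boundary to the centre of the next on the same arm, which gave 2121 TADs in D. virilis and 2128 in D. busckii out of 6452 in the series. The lists were made by in situ Hi-C, in which DNA ends that lie close together in fixed nuclei are ligated and sequenced. Both groups were mixed-sex embryos of stage 15 to 16, D. virilis from San Diego stock 15010-1051.0 and D. busckii from San Diego stock 13000-0081.31. D. busckii flies were fed potato powder and instant medium in addition to standard medium.

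The protocols of the groups differed. D. virilis embryos were fixed whole and fixed again while they were broken up, whereas D. busckii embryos were fixed only while being dounced, and dangling ends were removed from the D. busckii libraries alone. Per the study's methods the D. busckii map also held more useful reads. Each species is represented by 1 map summed from 2 replicates and 1 list, so no difference below has a replicate check and no p-value is given. Species, protocol and depth cannot be told apart. The error given for a percentile is a 95% interval from the ranks of the TADs and that for a share is a 95% Wilson interval; both cover the number of TADs only. The spread over the 5 long arms (2L, 2R, 3L, 3R and X) is given beside the main values, and arms of 1 map are not replicates. The number of contacts behind a boundary was not analysed here.

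TADs are chromosome segments within which loci meet often, while contacts across their borders are rarer. In flies their boundaries often lie at promoters of active genes and at sites of insulator proteins, while long TADs often hold silent or developmentally regulated genes. Chromosome arms of Drosophila species keep most of their genes over evolution, as Muller elements, although gene order within an arm is shuffled. D. virilis has a larger genome than D. busckii, so a given set of genes is spread over more sequence.

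The D. virilis lists covered more sequence with almost the same number of boundaries. The arms spanned 154.1 Mb between outermost boundaries in D. virilis, against 109.8 Mb in D. busckii, a ratio of 1.40 and a difference of 44.4 Mb. The ratio of boundary numbers was 0.997. Mean TAD length was accordingly 72.7 kb in D. virilis and 51.6 kb in D. busckii, a ratio of 1.41 (1.40 ± 0.0893, mean ± SD over the 5 long arms). Over all arms together the extra 44.4 Mb thus lay in longer TADs and not in more TADs, although single arms differed in TAD number. The question is which TADs held it.

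The difference was not the same along the length distribution. The shortest TADs of D. virilis were no longer than those of D. busckii, TADs of middle rank were longer by about the same factor over a wide range of ranks, and the factor grew again among the longest TADs. At the 5th percentile the length was 5.52 kb in D. virilis (4.95 to 6.06 kb), against 6.18 kb in D. busckii (5.68 to 6.65 kb), a ratio of 0.894. At the 10th percentile it was 8.74 kb in D. virilis (7.72 to 10.1 kb), against 8.39 kb in D. busckii (7.84 to 9.44 kb), and the intervals overlapped. All these lengths are below the smallest window of the boundary calling, which was the same in bp for both species. The part of that window in the similar short ends was not tested. Of the 99 percentiles from 1 to 99, 91 had a ratio above 1, and the 8 others were those from 1 to 8.

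From the 20th to the 65th percentile the ratio stayed between 1.17 and 1.28. The 25th percentile was 22.0 kb in D. virilis (20.7 to 23.8 kb), against 17.7 kb in D. busckii (16.3 to 18.7 kb). The median was 39.6 kb in D. virilis (37.96 to 40.8 kb), against 33.1 kb in D. busckii (31.5 to 34.7 kb), a ratio of 1.19 (1.19 ± 0.0892, SD over the 5 long arms). The intervals of both percentiles were apart. The middle of the distribution was therefore longer in D. virilis, but by less than the ratio of the arm spans.

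From the 70th percentile upwards the ratio lay between 1.31 and 1.64. The 75th percentile was 79.998 kb in D. virilis (75.1 to 86.5 kb), against 58.1 kb in D. busckii (55.1 to 62.1 kb), a ratio of 1.38. The 90th percentile was 182 kb in D. virilis (166 to 199 kb), against 116 kb in D. busckii (107 to 128 kb), a ratio of 1.57 (1.52 ± 0.138, SD over the 5 long arms). The 99th percentile was 464 kb in D. virilis (415 to 554 kb), against 284 kb in D. busckii (262 to 342 kb), a ratio of 1.64. Thus neither description, all TADs longer by 1 factor or a longer tail alone, covered the whole distribution.

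**Figure D1:**
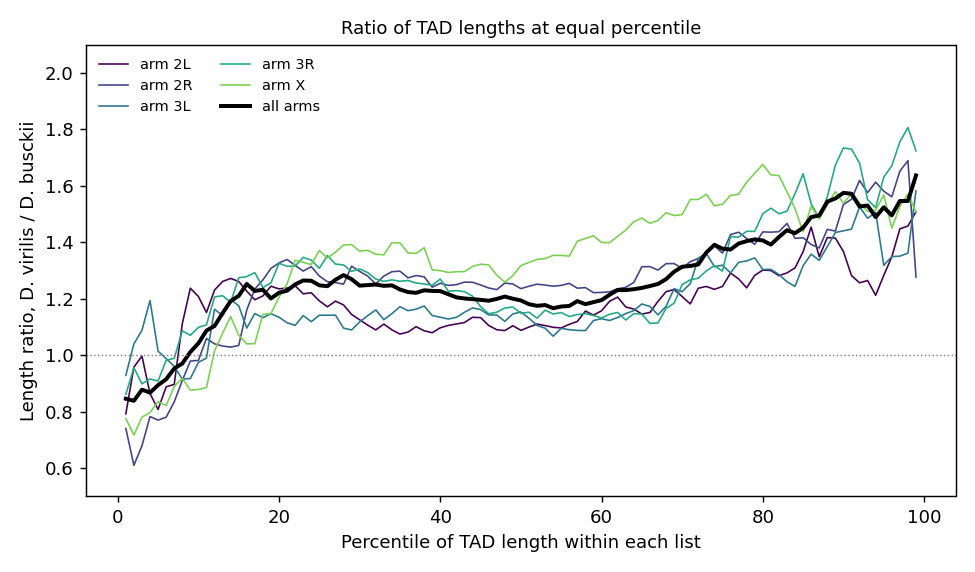
Ratio of TAD length in D. virilis over D. busckii (y axis) at equal percentile of the 2 lists (x axis), for all arms (thick line) and for each of the 5 long arms (thin lines); the dotted line marks equal lengths. The line for all arms is at 0.845 at the 1st percentile, near 1.2 through the middle ranks and at 1.64 at the 99th percentile.

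The single long arms shared the longer middle and upper ranks, but not every step of the profile. At the 5th percentile the ratio was above 1 on 1 of 5 long arms, and at the 10th percentile on 2 of 5, with a range from 0.878 on X to 1.21 on 2L. At the 20th, 50th, 75th, 90th and 99th percentiles it was above 1 on all 5 long arms. The median ratio ranged from 1.09 on 2L to 1.32 on X, and the 90th percentile ratio from 1.37 on 2L to 1.73 on 3R. On 2L the ratio at the 10th percentile was above that at the median, and on 2R the 99th percentile ratio (1.28) was below the 90th (1.53). The X chromosome had the largest ratio in the middle of the distribution and the smallest ratio at the 10th percentile.

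Counts by length class gave the same picture in numbers of TADs. TADs of 10 kb or shorter numbered 238 in D. virilis and 259 in D. busckii, or 11.2% (9.95 to 12.6%) of the D. virilis list and 12.2% (10.9 to 13.6%) of the D. busckii list. The widest gap among short classes was in that from 10 to 20 kb, with 236 TADs or 11.1% (9.86 to 12.5%) in D. virilis and 361 TADs or 16.96% (15.4 to 18.6%) in D. busckii. In the class from 40 to 80 kb the numbers were nearly equal, with 512 in D. virilis and 511 in D. busckii. Above this class D. virilis had more TADs in every class.

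TADs of 150 kb or longer numbered 268 or 12.6% (11.3 to 14.1%) in D. virilis and 142 or 6.67% (5.69 to 7.81%) in D. busckii. They covered 74.3 Mb or 48.2% of the span in D. virilis, against 32.5 Mb or 29.6% in D. busckii. Above 300 kb there were 77 TADs with 33.9 Mb in D. virilis and 19 TADs with 7.35 Mb in D. busckii. TADs of 500 kb or longer numbered 15 in D. virilis and 2 in D. busckii, and 4 TADs of D. virilis exceeded the longest TAD of D. busckii. At the other end, TADs of up to 40 kb covered less sequence in D. virilis in each of their 3 classes, for example 18.3 Mb against 18.9 Mb in D. busckii from 20 to 40 kb.

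**Figure D2:**
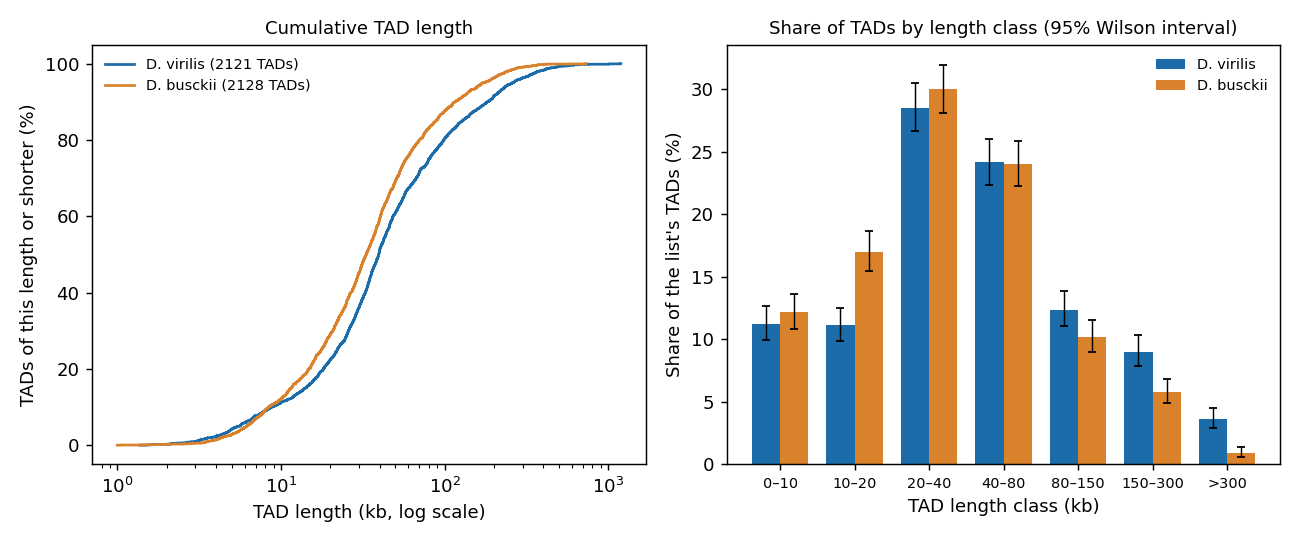
Left, share of TADs (y axis, %) of a given length or shorter (x axis, kb, log scale) in D. virilis and D. busckii; right, share of each list's TADs (y axis, %) in 7 length classes (x axis, kb) with 95% Wilson intervals. The curves cross between 7.34 and 7.99 kb and part above that, and the class over 300 kb holds 3.63% of D. virilis TADs and 0.893% of D. busckii TADs.

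To find where the extra sequence lay, TADs were ranked by length in each list and the difference of the mean lengths was divided among 10 equal groups of rank (deciles). The longest decile held 51.9% of the difference (51.1 ± 4.58%, mean ± SD over the 5 long arms). The 2 deciles below it held 20.5% and 10.5%. The 5 shorter deciles together held 8.50%, and the shortest decile alone -0.216%. On the long arms the share of the longest decile ran from 43.5% on X to 56.0% on 3R, and the share of the 5 shorter deciles from 7.37% on 2L to 9.56% on 2R. Growth by 1 common factor would put 38.1% in the longest decile and 17.2% in the 5 shorter, as in the D. busckii span. In the full lists the longest decile thus held the largest part of the extra span, and more than 1 common factor would give. The share of the longest decile was 33.2% with the lower-scoring 50% of boundaries of each list, and 23.9% with D. busckii reduced to the D. virilis boundary density, so it depended on the boundaries kept.

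The spread of lengths was wider in D. virilis. The SD of log10 length was 0.479 in D. virilis and 0.423 in D. busckii, a difference of 0.0558, and it was larger in D. virilis on all 5 long arms. It ranged from 0.456 to 0.519 over the long arms of D. virilis and from 0.405 to 0.445 over those of D. busckii, without overlap. The 90th percentile was 20.9 times the 10th in D. virilis and 13.8 times in D. busckii. The interquartile range of log10 length, which ignores both ends, differed by less, with 0.560 in D. virilis and 0.517 in D. busckii. On 3R it was smaller in D. virilis, with 0.504 against 0.507 in D. busckii.

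Scaling each list to its own mean did not make the distributions match. The median TAD was 0.544 of the mean in D. virilis and 0.642 of the mean in D. busckii. The 90th percentile was 2.51 times the mean in D. virilis and 2.24 times in D. busckii, and the 10th percentile 0.120 times in D. virilis and 0.163 times in D. busckii. The Gini coefficient, which is 0 if all TADs are of equal length, was 0.553 in D. virilis and 0.503 in D. busckii. The longest decile of TADs covered 42.1% of the span in D. virilis and 38.1% in D. busckii, while the shorter 50% of TADs covered 14.6% in D. virilis and 17.2% in D. busckii.

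The arm spans of the lists did not differ by a common factor. The span of 3R was 37.4 Mb in D. virilis and 23.4 Mb in D. busckii, a ratio of 1.60, and that of 2L 29.8 Mb in D. virilis and 18.8 Mb in D. busckii, a ratio of 1.58. X spanned 32.7 Mb in D. virilis and 22.6 Mb in D. busckii (1.45), and 3L 26.5 Mb in D. virilis and 19.98 Mb in D. busckii (1.32). The ratio was lowest on 2R, with 26.6 Mb in D. virilis and 24.0 Mb in D. busckii (1.11). In D. virilis the outermost boundaries enclosed between 97.2% and 98.3% of each assembled long arm.

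The arms reached these spans in different ways. On 2L there were 398 TADs in D. virilis and 328 in D. busckii, and their means were 75.0 kb in D. virilis and 57.4 kb in D. busckii. 3R also had more in D. virilis, with 518 TADs in D. virilis and 477 in D. busckii. On X the numbers were close, with 368 TADs in D. virilis and 376 in D. busckii, and the mean lengths were 88.9 kb in D. virilis and 60.1 kb in D. busckii. On 2R there were fewer TADs in D. virilis, 409 against 530 in D. busckii, with means of 65.1 kb in D. virilis and 45.4 kb in D. busckii. The near equality of the totals thus hid opposite differences on 2L and 2R. Boundaries per Mb were lower in D. virilis on every arm, at 13.8 in D. virilis and 19.4 in D. busckii over all arms, with ratios on the long arms from 0.676 on X to 0.771 on 3L.

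The small chromosome 4, known as the dot or Muller element F, held few TADs. Its median TAD was 30.5 kb in D. virilis (25.3 to 42.4 kb, 31 TADs), against 31.1 kb in D. busckii (20.1 to 38.4 kb, 28 TADs). Its 90th percentile was 56.8 kb in D. virilis and 63.5 kb in D. busckii, and no TAD of either list reached 150 kb there. Its mean, 37.5 kb in D. virilis and 32.7 kb in D. busckii, and its longest TAD, 141 kb in D. virilis and 84.3 kb in D. busckii, were larger in D. virilis. The intervals are wide, so a difference of the size seen on the long arms was not detectable with these numbers. In D. virilis only 63.1% of the assembled chromosome 4 lay between its outermost boundaries.

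**Figure D3:**
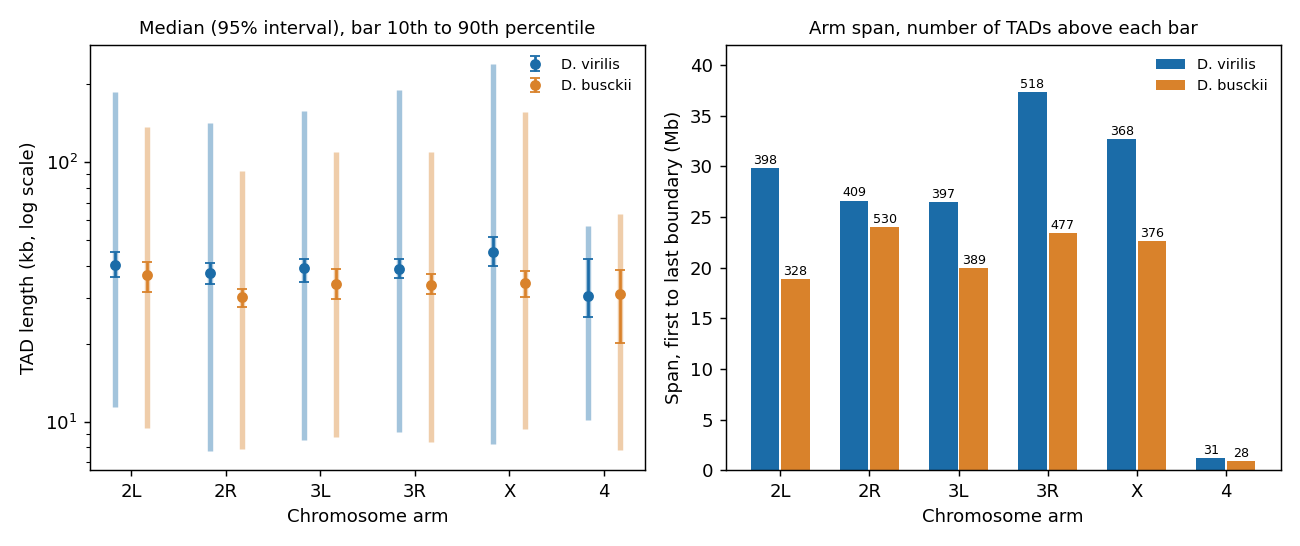
Left, median TAD length (points, kb, log scale) with its 95% interval and the range from the 10th to the 90th percentile (pale bars) for each chromosome arm in D. virilis and D. busckii; right, span between the outermost boundaries of each arm (Mb), with the number of TADs above each bar. Medians of D. virilis are above those of D. busckii on the 5 long arms but not on chromosome 4, and 2R has the lowest ratio of spans, 1.11.

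Coding genes were counted to learn whether long TADs held more genes or more sequence per gene. D. virilis genes came from the annotation that the authors moved to their assembly, and D. busckii genes from the RefSeq annotation ASM1175060v1, whose coordinates were set against the boundary list. Of the D. busckii boundaries, 74.3% lay within 1000 bp of the end of a RefSeq coding gene, against 27.5 to 49.1% when the boundaries were moved by 2 to 200 kb either way, so the table was used for counts. The annotations were made by different procedures, and the part of this in the differences below was not tested. Genes were assigned by their midpoint, 13323 of 13391 in D. virilis and 12031 of 12095 in D. busckii.

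A TAD held 6.28 ± 6.29 coding genes in D. virilis and 5.65 ± 4.64 in D. busckii (mean ± SD over TADs), with medians of 4 in D. virilis and 5 in D. busckii. TADs with no coding gene numbered 83 or 3.91% (3.17 to 4.83%) in D. virilis and 60 or 2.82% (2.197 to 3.61%) in D. busckii. TADs with 10 or more genes made up 19.8% in D. virilis and 15.7% in D. busckii, and those with 20 or more numbered 97 in D. virilis and 36 in D. busckii. There were 15.9 TADs per 100 coding genes in D. virilis and 17.7 in D. busckii. This density per gene was lower in D. virilis on all 5 long arms, with the largest gap on 2R (15.0 in D. virilis, 19.03 in D. busckii) and the smallest on 3R (15.9 in D. virilis, 16.8 in D. busckii). Counted per gene, then, the lists differed far less than per Mb, with a ratio of 0.900 per gene and 0.710 per Mb.

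Gene number by rank split the distribution into 2 parts. In the 7 shorter deciles the mean number of genes was nearly equal at equal rank: the ratio of D. virilis to D. busckii ran from 0.901 to 1.05, while that of length ran from 0.925 to 1.26. In the fifth decile, for example, TADs averaged 35.9 kb and 5.25 genes in D. virilis, against 29.9 kb and 5.54 genes in D. busckii. In the 3 longest deciles D. virilis TADs held more genes, with ratios of 1.14, 1.32 and 1.33. The longest decile averaged 306 kb and 15.1 genes in D. virilis (SD 10.5 genes, 212 TADs), against 197 kb and 11.3 genes in D. busckii (SD 7.45 genes, 212 TADs).

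On each of the 5 long arms, ranked by itself, the longest decile of D. virilis held more genes per TAD than that of D. busckii, with ratios from 1.14 on 3L to 1.40 on 2L. In the 7 shorter deciles of the same arms the ratio of gene numbers was below 1 on 4 arms (0.924 to 0.965) and 1.098 on 2R. TADs of middle rank therefore held about the same number of genes over more sequence, whereas TADs of the longest ranks held both more genes and more sequence. Seen from the genes, 28.6% of coding genes in D. virilis and 14.7% in D. busckii lay in a TAD of 150 kb or longer, which are 268 TADs in D. virilis and 142 in D. busckii; no interval is given, since genes of a TAD are not independent.

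At equal gene number, TADs were longer in D. virilis for most classes of gene number. With a single gene the median was 24.1 kb in D. virilis (18.7 to 28.2 kb, 247 TADs), against 18.4 kb in D. busckii (13.7 to 24.8 kb, 203 TADs), and the intervals overlapped. With 4 to 6 genes it was 36.9 kb in D. virilis (34.1 to 39.8 kb, 505 TADs), against 30.2 kb in D. busckii (27.8 to 31.9 kb, 624 TADs). With 10 to 19 genes it was 85.6 kb in D. virilis (70.2 to 96.7 kb, 324 TADs), against 59.6 kb in D. busckii (53.7 to 68.4 kb, 298 TADs). TADs with 7 to 9 genes were closer, with 43.7 kb in D. virilis (40.2 to 50.2 kb), against 41.5 kb in D. busckii (38.4 to 45.5 kb). TADs without a gene had medians of 18.6 kb in D. virilis and 19.7 kb in D. busckii.

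At equal length, gene density was close in some classes, and lower or higher in D. virilis in others. From 80 to 150 kb it was higher in D. virilis, at 79.5 genes per Mb, against 72.7 in D. busckii. TADs of 150 to 300 kb held 56.1 genes per Mb in D. virilis and 54.6 in D. busckii, and those of up to 10 kb 296 genes per Mb in D. virilis and 303 in D. busckii. Between 10 and 20 kb the densities were further apart, at 213 genes per Mb in D. virilis and 257 in D. busckii, and likewise between 20 and 40 kb (163 in D. virilis, 182 in D. busckii) and above 300 kb (45.8 in D. virilis, 54.7 in D. busckii). In both lists gene density fell with every step of length up to 300 kb. The TAD with the most coding genes held 55 in D. virilis (3R:21695707-21882012, 186 kb) and 49 in D. busckii (3L:4309603-4499692, 190 kb), each of less than 200 kb.

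Over all arms, sequence within annotated coding genes, introns included, accounted for more of the extra span than sequence outside them. Coding gene bodies covered 92.4 Mb of the TADs in D. virilis and 63.6 Mb in D. busckii, a ratio of 1.45. Sequence outside them covered 61.7 Mb in D. virilis and 46.2 Mb in D. busckii, a ratio of 1.34. Gene bodies thus made up 65.05% of the 44.4 Mb and the rest 34.95%. The mean annotated gene was 7.44 kb in D. virilis and 5.52 kb in D. busckii, with medians of 2.21 kb in D. virilis and 2.05 kb in D. busckii, and genes of 50 kb or longer numbered 375 in D. virilis and 179 in D. busckii. On X it was the reverse, with 4.76 Mb more in gene bodies and 5.38 Mb more outside them in D. virilis than in D. busckii. On 2R the sequence outside genes was no larger in D. virilis (9.65 Mb) than in D. busckii (10.2 Mb).

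In short and middle TADs the added sequence lay mostly in gene bodies. In the fourth decile, gene bodies averaged 22.8 kb per TAD in D. virilis and 17.5 kb in D. busckii, while sequence outside genes averaged 6.48 kb in D. virilis and 6.13 kb in D. busckii. In the longest decile gene bodies averaged 152 kb in D. virilis and 88.4 kb in D. busckii, and sequence outside genes 154 kb in D. virilis and 108 kb in D. busckii. In both lists the share of sequence outside genes was higher in long TADs, at 50.4% in the longest decile of D. virilis and 55.1% in that of D. busckii, against 21.8% in the shortest decile of D. virilis and 21.3% in that of D. busckii.

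**Figure D4:**
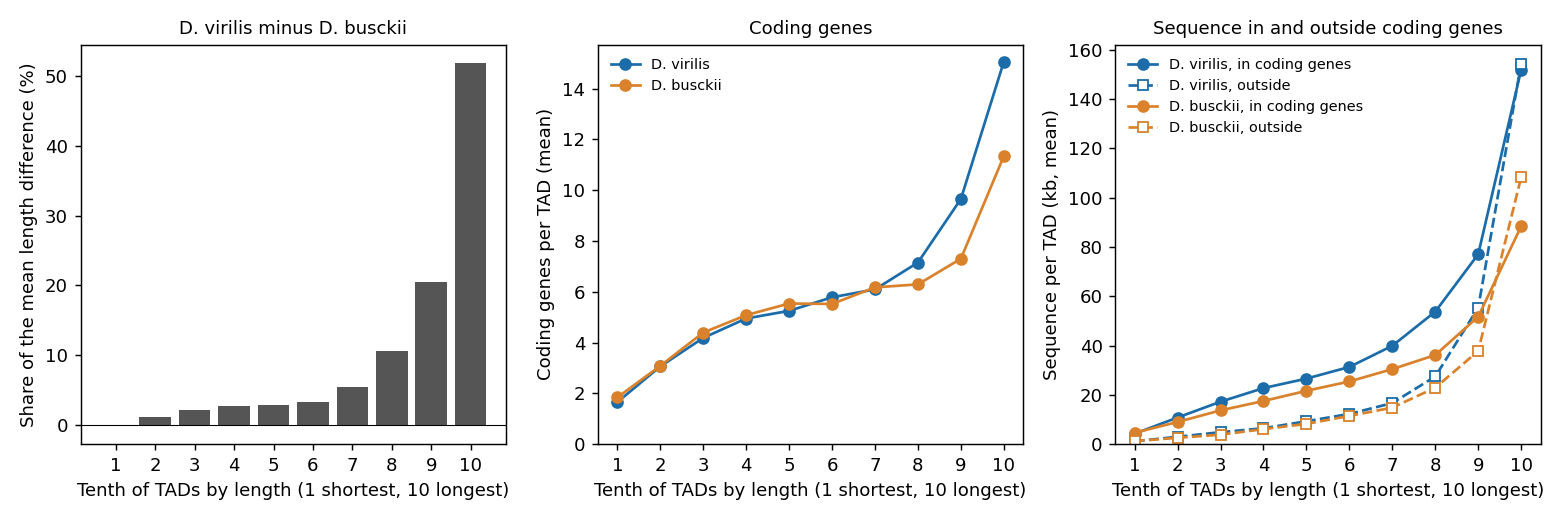
TADs of each list ranked by length in 10 equal groups (x axis, 1 shortest). Left, share (%) of the difference in mean length, D. virilis minus D. busckii, that falls in each group; centre, mean number of coding genes per TAD; right, mean sequence per TAD (kb) in coding gene bodies (filled circles) and outside them (open squares). The longest group holds 51.9% of the difference, and gene numbers run together up to the seventh group and part above it.

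Boundary density varied along the arms of D. virilis. When each long arm was cut into 10 equal stretches from its lowest to its highest coordinate, boundary density in D. virilis lay between 12.9 and 15.6 per Mb in the 8 stretches of lowest coordinate, and at 11.2 and 9.67 per Mb in the last 2. In D. busckii it stayed between 17.5 and 21.7 per Mb along the whole arm. The median TAD of the last stretch was 50.5 kb in D. virilis (145 TADs), against 32.1 kb in D. busckii (221 TADs). Its 90th percentile was 262 kb in D. virilis and 94.2 kb in D. busckii, whereas in the second stretch it was 142 kb in D. virilis and 125 kb in D. busckii. In number, TADs of 150 kb or longer were spread over the stretches, with 22 to 30 in each of D. virilis and 28 in the last. In D. busckii they numbered 11 to 19 in each stretch, with 11 in the last. As a share of TADs they were more frequent in the last stretch of D. virilis, at 28 of 145, against 22 of 236 in the second. Which end of an arm is next to the centromere is not given in the sources used here. The last stretch of an arm in D. virilis therefore need not match the last in D. busckii.

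Single arms differed in which end was sparse. In D. virilis the last stretch had 6.96 boundaries per Mb on 3R, 7.51 on 2R and 7.64 on X, but 12.5 on 3L and 14.7 on 2L, where instead the stretch of lowest coordinate was sparse with 7.71 per Mb. The median TAD there on 2L was 99.3 kb in D. virilis (23 TADs), against 40.6 kb in D. busckii (30 TADs), and that of the last stretch of 3R was 82.0 kb in D. virilis (26 TADs), against 26.9 kb in D. busckii (62 TADs). In the stretch of lowest coordinate the median was longer in D. busckii on 3R (38.1 kb in D. virilis, 51.3 kb in D. busckii). The same held on 3L (24.6 kb in D. virilis, 28.7 kb in D. busckii), but not in the other end stretches. Density in D. busckii also varied by arm, for example from 16.7 per Mb in the first to 26.9 in the last stretch of 3R. Stretches of the species were set side by side by coordinate only, so opposite ends of an arm may have been compared. On the middle 8 stretches of 2L the medians were 38.1 kb in D. virilis and 36.5 kb in D. busckii. Of the 100 scaffold joints between outermost boundaries of the D. virilis long arms, 44 were in the 2 end stretches. The sparser end stretch held 3 joints and the other 3 on 2L, 3 and 4 on 3R, and 8 and 8 on X. On 2R these numbers were 8 and 3, and on 3L 4 and 0. A link between joints and sparse ends was not tested.

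**Figure D5:**
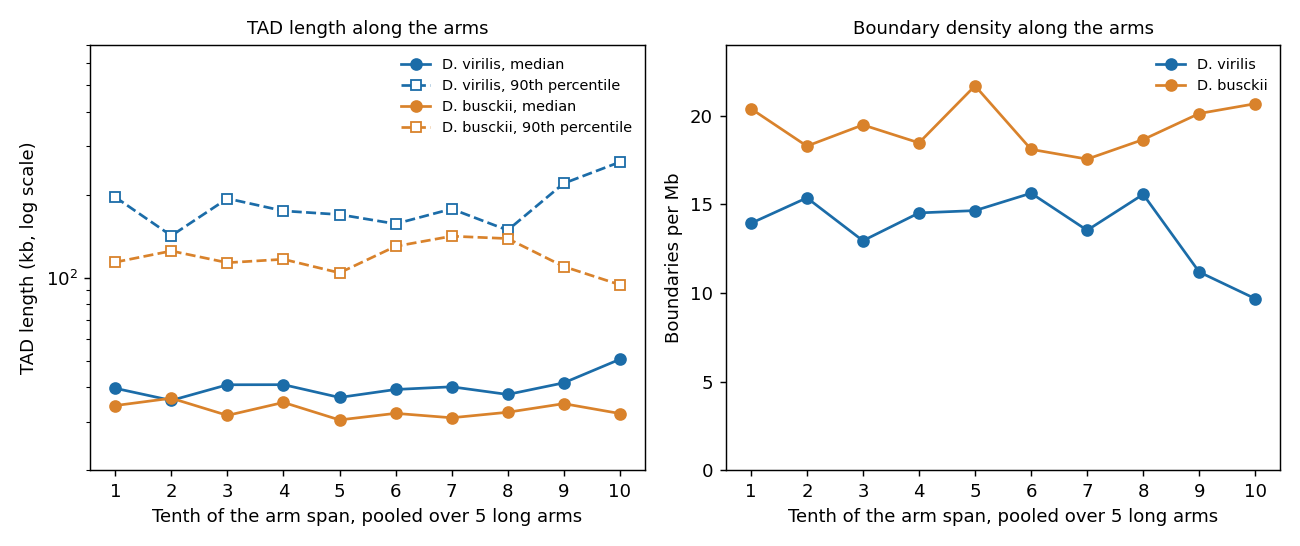
TAD length (left, kb, log scale; circles median, squares 90th percentile) and boundaries per Mb (right) in 10 equal stretches of the arm span, pooled over the 5 long arms, in D. virilis and D. busckii. Boundary density of D. virilis is lowest in the last stretch, at 9.67 per Mb, and that of D. busckii in its own last stretch is 20.7 per Mb. Stretches are matched by coordinate only.

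Boundaries were less evenly spread over D. virilis arms. In windows of 1 Mb on the long arms D. virilis had a median of 13.5 boundaries (range 2 to 28, 150 windows) and D. busckii a median of 19 (range 5 to 35, 106 windows). The variance was 2.28 times the mean in D. virilis and 1.60 times in D. busckii. Windows with 5 boundaries or fewer numbered 9 in D. virilis and 1 in D. busckii. The correlation of log10 lengths of adjacent TADs was 0.0180 in D. virilis (2085 pairs) and -0.0382 in D. busckii (2095 pairs), as a description of pairs that share a boundary. Pairs in which both TADs were of 150 kb or longer numbered 54 in D. virilis and 8 in D. busckii. On the long arms 12.8% of D. virilis TADs and 6.76% of D. busckii TADs were that long. Whether long TADs adjoin more often than these shares give was not tested.

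The longest TADs were not alike in content. The longest of D. virilis, 2R:25396108-26590121 (1194 kb), held 3 coding genes, lay 99.6% outside coding genes and spanned 3 scaffold joints. The next, X:25619756-26627878 (1008 kb), held 44 coding genes and no joint. Among these genes was run (X:25945507-25947330), which encodes the pair-rule transcription factor Runt of D. melanogaster segmentation. The third, 2L:3007037-4002655 (996 kb), held 49 coding genes, and its longest was GJ18176 (90.6 kb). The TAD 3R:35153472-35904195 (751 kb) held 12 genes and 1 joint, and X:19778917-20441177 (662 kb) held 33 genes, among them up, which encodes a muscle troponin T in D. melanogaster, and the chorion gene Cp36.

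Among the next 5 TADs of D. virilis, of 580 to 648 kb, 3 held clusters of related named genes. The seventh, of 619 kb on 2R, held 46 coding genes with Mal-A5, Mal-A7, Mal-A6 and Mal-A2, which are maltase genes in D. melanogaster. The ninth, of 609 kb on 2R, held the odorant-binding protein genes Obp56c, Obp56a, Obp56d and Obp56g. The TAD of 580 kb on 3R held Obp83cd, Obp83a, Obp83g and Obp83abL1 of the same family. The others held no gene named after a D. melanogaster gene, and their longest coding genes were GJ16871 (170 kb) on X and GJ23338 (89.1 kb) on 3R.

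The 5 longest TADs of D. busckii were X:4354969-5092345 (737 kb, 29 coding genes), 2R:14404302-14990378 (586 kb, 24 genes), 2R:17201634-17626223 (425 kb, 42 genes), 3L:10356307-10769373 (413 kb, 14 genes) and X:12883706-13279588 (396 kb, 22 genes). The share outside coding genes was 91.6% in the second and 88.6% in the fourth of them, against 39.6% in the fifth. The longest TADs of both lists thus varied in gene number and in the share outside coding genes. A high share outside genes did not always go with few genes, as the second TAD of D. busckii shows.

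Genes of known function showed the range of TADs in D. virilis, since nearly all D. busckii genes of the table carry no such symbol. Of 32 developmental regulators sought, 19 were found, in 17 TADs with a median over genes of 101 kb (19.1 to 1008 kb); 17 of the 19 lay in TADs longer than the median of the list and 8 in TADs of 150 kb or longer. Over all 13323 coding genes of D. virilis, 69.6% lay in TADs longer than that median and 28.6% in TADs of 150 kb or longer, and the median TAD over genes was 68.8 kb. Examples were the Hox gene Ubx, which specifies segment identity, in a TAD of 232 kb, dpp, which encodes a BMP ligand, in a TAD of 321 kb, and the gap gene kni in a TAD of 212 kb. By contrast eve lay in a TAD of 21.6 kb and lab in one of 19.1 kb. Of 7 housekeeping genes found, the ribosomal protein genes RpL14 and RpL32 lay in TADs of 28.9 and 19.3 kb and the chaperone gene Hsp83 in one of 6.35 kb, but RpS3 in one of 311 kb with 27 genes. Their median was 28.9 kb and 2 of the 7 lay in TADs longer than the median of the list, against the same 69.6% of all coding genes. The genes were picked by symbol, several share a TAD, and no test was made.

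The D. virilis assembly had 104 joints on the 6 arms, and 79 TADs spanned at least 1, of which 41 were of 150 kb or longer. Long TADs span more joints by their length alone, and per Mb the numbers were close, with 0.687 joints per Mb in TADs of 150 kb or longer and 0.613 in shorter ones. Without these 79 TADs, whose median was 165 kb, the mean length ratio was 1.31, the 90th percentile ratio 1.42 and the difference in the share of long TADs 4.44 percentage points, against 5.96 with them. Leaving out TADs of this length from D. virilis alone lowers these values by construction, so the change says nothing of the joints themselves. Joints of the D. busckii assembly were not analysed here.

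The boundaries themselves were of similar width, with a median of 967 bp in D. virilis and 1060 bp in D. busckii. Within each list the score, which is lower at boundaries that fewer contacts cross, was ranked against TAD length. Spearman's rho between the length of a TAD and the mean score of its 2 boundaries was 0.0127 in D. virilis (2121 TADs) and 0.151 in D. busckii (2128 TADs), as a description. In D. busckii the 25% of TADs with the lowest mean scores had a median of 29.0 kb and the 25% with the highest one of 40.7 kb, while in D. virilis the corresponding medians were 39.3 and 38.6 kb. The upper ends ran in opposite directions: the 90th percentile was 212 kb at the lowest and 136 kb at the highest scores in D. virilis, against 109 kb at the lowest and 136 kb at the highest scores in D. busckii. The difference between the lists was not tested.

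The length profile depended on how many boundaries were kept in D. busckii. When its list was reduced to the 1528 lowest-scoring boundaries that give each arm the D. virilis boundary density, mean lengths became nearly equal by construction, with a ratio of 1.01. The median ratio was then 1.07, the 90th percentile ratio 0.960 and the 99th percentile ratio 1.04. The difference in SD of log10 length, D. virilis minus D. busckii, was then -0.0194, and that in the share of TADs of 150 kb or longer -1.096 percentage points. The longer tail of D. virilis was not seen between these lists of equal density. The reduction joins D. busckii TADs alone across dropped boundaries, which itself lengthens their upper ranks. It therefore cannot decide whether the tails differ. With the lower-scoring 50% of both lists the median ratio was 1.53 and the 90th percentile ratio 1.37, so that the lists then differed more in the middle than in the tail.

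D. melanogaster embryos of stage 15 to 16 (strain w1118 Oregon R) were fixed by the same procedure as those of D. virilis, and their list is given for comparison. Its 2203 TADs had a median of 35.5 kb and a 90th percentile of 133 kb, between the values of D. virilis and D. busckii. The ratio of D. virilis to D. melanogaster was 1.299 at the 10th percentile, 1.12 at the median and 1.37 at the 90th percentile, so that the short end of D. virilis was longer against this list. The longest decile held 45.2% of the difference in mean length between D. virilis and D. melanogaster, against 41.5% of the D. melanogaster span. The ratio of D. melanogaster to D. busckii was 0.802 at the 10th percentile and 1.15 at the 90th. The SD of log10 length of D. melanogaster TADs was 0.470, near the 0.479 of D. virilis and above the 0.423 of D. busckii. The interquartile range of log10 length was 0.560 in D. virilis, against 0.522 for the D. melanogaster list and 0.517 for the D. busckii list, so by this measure D. melanogaster was nearer to D. busckii.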

How the data were processed

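In situ Hi-C (DpnII) was performed by the authors on embryos of 3 species. Read mates were mapped with BWA, matrices of restriction fragments were built and corrected with HiCExplorer, 2 replicates were summed per species, and boundaries were called with hicFindTADs on the summed matrix with the same window sizes in bp for each species. The deposited lists give the start, end and score of each boundary; the deposited score is the authors' TAD-separation score and was used only to rank boundaries within a list. D. virilis positions are on the authors' Hi-C assembly of dvir_caf1 scaffolds, with a FlyBase annotation moved by the authors; D. busckii positions are on the authors' own assembly. Positions are given from 1.

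The annotation ASM1175060v1 of RefSeq supplied D. busckii coding genes and none of its coordinates are printed. Rank deciles of the mean difference were taken from the quantile functions at 10000 points. Joints were placed in the middle of the 5000 bp gaps of the chain file. Members and gene lists were chosen with earlier results of these data known. Named were the 10 longest TADs of D. virilis with up to 4 genes each that carry a symbol from D. melanogaster, by gene length, otherwise the longest coding gene, the 5 longest TADs of D. busckii, and members of the lists of developmental regulators and housekeeping genes. TADs with the most genes were named after their values were seen. Alternatives changed the TAD edges, the boundaries kept, the arms and the TADs with joints. The functions were tested on simulated data. Python 3.11.15, NumPy 2.4.6, SciPy 1.17.1, pandas and matplotlib 3.10.9 were used. The D. busckii assembly Hi-C and long-read samples were not analysed here.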

Additional observations from a re-analysis of the deposited data

How the results depend on the processing

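Of 100 recomputed values for 9 results, 83 moved by less than the SD over the 5 long arms, 14 moved by more and 3 changed direction. Most of the 100 left out 1 long arm or chromosome 4, which keeps most TADs, so a pooled value could move little. Boundaries per Mb could not change with the TAD edges. The 83 are therefore no measure of robustness. None of those 17 came from taking TADs from edge to edge, leaving out the outer 10% of arms, chromosome 4 or any long arm, ranking within arms, or replacing the SD by the interquartile range. The 10th percentile ratio stayed between 1.01 and 1.09 under all alternatives. With the lower-scoring 50% of each list, the ratio of D. virilis to D. busckii was 1.53 at the median, 1.37 at the 90th and 1.33 at the 99th percentile, the SD difference was 0.0337, the difference in the share of TADs of 150 kb or longer was 8.38 percentage points, and the longest decile held 33.2% of the extra span. With D. busckii reduced to the D. virilis boundary density, the ratios were 1.07 at the median, 1.01 for the mean and 1.04 at the 99th percentile, the longest decile held 23.9%, and the ratio of boundaries per Mb was 0.990. Under the same reduction the direction changed for the 90th percentile ratio (0.960), the SD difference (-0.0194) and the difference in the share of long TADs (-1.096 percentage points). The reduction sets the mean length by construction and joins D. busckii TADs across the boundaries it drops; the cause was not tested. Without D. virilis TADs that span a scaffold joint, a filter that takes out long TADs from that list alone, the mean ratio was 1.31, the 90th percentile ratio 1.42 and the share difference 4.44 percentage points; boundaries per Mb could not be given for that setting. No paired analysis was possible because each species has 1 merged list. The lists carry no read depth, so boundaries missed for lack of contacts cannot be counted in either species.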
